A study of Mus musculus with 8 samples.

Results

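The AP-1 subunits Fos, Fosb, Fosl1, Fosl2, Jun, Junb and Jund and the immediate early genes Ier2, Ier3 and Egr1 were followed in neurospheres that lacked FoxO3 and in wild type neurospheres. Every probe set that the platform annotation gives to 1 of these symbols was taken, which gave 14 probe sets for 10 genes, out of 45037 probe sets tested and 18193 genes with a probe set of their own. One genotype came from FoxO3-/- mice of the FVB/N strain (FoxO3 null, 4 arrays), and the other from FoxO3+/+ mice of the same strain (wild type, 4 arrays). Both genotypes were grown from forebrain cells as secondary neurospheres, free-floating clusters of neural stem and progenitor cells that form after a first generation has been taken apart, with bFGF and EGF at 20 ng/ml each, and were harvested on day 6. The arrays fall into set 2 and set 1, each with 2 arrays of each genotype. The labels say neither what a set is, nor the age of the mice, nor whether arrays of 1 set and genotype came from separate cultures, so the p-values speak only to how far these arrays scatter, and that scatter may be technical.

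AP-1 is a dimeric transcription factor of basic leucine zipper proteins. Jun proteins pair with each other or with Fos proteins, whereas Fos proteins need a Jun partner to bind DNA. Many of these genes are immediate early genes: growth factors switch on their transcription through the ERK cascade and serum response factor without new protein synthesis, and their mRNAs are short-lived. EGF and bFGF, which keep neural progenitors dividing, are such growth factors and were present in the medium of every sample.

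The promoter windows of Jun, Fosl2 and Ier3 are shown first because each has a probe set that passed as lower in FoxO3 null spheres. For Fosl2 not every probe set did. The window of Junb, which holds a FoxO motif and did not pass, is shown with them. RefSeq windows of 250 bases before to 50 bases after the annotated start (GRCm38.p6) were matched for 7 of the 10 genes, not for Fosl1, Ier2 and Egr1. They lie at chr4:95052173-95052472 on the minus strand (Jun), chr5:32136222-32136521 on the plus strand (Fosl2), chr17:35821463-35821762 on the plus strand (Ier3) and chr8:84978699-84978998 on the minus strand (Junb), and run 5′ to 3′ along the gene. Capitals mark every match, on either strand, to the AP-1 element TGANTCA, the cyclic AMP element TGACGTCA, its relative TGACATCA, the FoxO motif GTAAACA, the Egr motif GCGNGGGCG, the TATA box TATAAA and the CArG box that serum response factor binds.
Jun: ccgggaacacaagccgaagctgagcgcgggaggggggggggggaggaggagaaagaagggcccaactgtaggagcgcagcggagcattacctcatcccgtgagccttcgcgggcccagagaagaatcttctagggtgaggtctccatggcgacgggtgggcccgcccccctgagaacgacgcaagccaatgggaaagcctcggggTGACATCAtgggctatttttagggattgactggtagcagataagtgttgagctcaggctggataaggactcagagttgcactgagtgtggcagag
Fosl2: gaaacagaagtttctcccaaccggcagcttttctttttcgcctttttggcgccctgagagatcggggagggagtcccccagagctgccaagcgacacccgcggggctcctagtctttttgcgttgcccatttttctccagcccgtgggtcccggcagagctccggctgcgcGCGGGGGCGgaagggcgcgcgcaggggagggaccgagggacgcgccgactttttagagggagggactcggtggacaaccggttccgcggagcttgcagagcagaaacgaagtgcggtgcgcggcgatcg
Ier3: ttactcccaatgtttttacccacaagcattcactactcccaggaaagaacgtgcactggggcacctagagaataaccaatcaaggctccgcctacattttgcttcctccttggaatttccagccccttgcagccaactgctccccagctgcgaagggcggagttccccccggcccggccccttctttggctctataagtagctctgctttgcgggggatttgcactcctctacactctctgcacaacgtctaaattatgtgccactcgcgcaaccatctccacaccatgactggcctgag
Junb: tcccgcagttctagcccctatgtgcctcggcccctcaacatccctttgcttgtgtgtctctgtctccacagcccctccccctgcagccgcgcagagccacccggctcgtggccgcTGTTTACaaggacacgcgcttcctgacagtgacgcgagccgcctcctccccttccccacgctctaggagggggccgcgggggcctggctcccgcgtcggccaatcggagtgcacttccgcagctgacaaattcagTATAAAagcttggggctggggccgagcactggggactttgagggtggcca

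No marked motifs overlapped in these windows. The Jun window held TGACATCA at position -45 from the start, the element known to bind Jun and ATF2 in the Jun promoter. That motif occurred in 3.62% of the 32851 windows of the same length. Fosl2 held GCGNGGGCG at position -79 (5.55% of windows), and so did the window of Fosb at position -50. Junb held the FoxO motif, on the opposite strand, at position -135 (3.65% of windows). It also held TATAAA at position 0, on the annotated start itself (13.6% of windows). The Ier3 window held none of the listed letters. Elsewhere, the Fos window held TATAAA at position -33 and that of Jund held none of the listed motifs. TGANTCA (7.81% of all windows), TGACGTCA (1.79%) and the CArG box (1.63%) were absent from all 7. TGACG, the shorter core of the cyclic AMP element, was searched but is not marked in capitals. It occurred at -129 and -66 in Fos, at -60 in Fosb and at -106 in Junb, and in 20.8% of all windows. A match is a description of the letters and no evidence of binding, and sites outside the window were not searched.

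Lower expression in FoxO3 null spheres was seen in part of the group. Of the 14 probe sets, 4 passed the test (limma with set as a term, Benjamini-Hochberg adjusted p under 0.05 over all 45037 probe sets), all lower in FoxO3 null arrays: 1 for Fosl2, 1 for Ier3 and both for Jun. Over all probe sets 0.802% passed in either direction and 0.586% passed as lower. At an unadjusted p under 0.05 it was 6 of 14, against 12.7% of all probe sets. The median log2 fold change, FoxO3 null minus wild type, was -0.08 over the 14 probe sets and 0.00977 over all. For 5 of the 14, the FoxO3 null arrays were below both wild type arrays of their own set in set 2 and in set 1, against 5.25% of all probe sets, and for 1 they were above, against 6.67%. The genes were chosen with earlier results of these data known, so these counts describe them and do not support the choice. Because RNA came from whole spheres, fewer cells that express a gene and less of its RNA per cell cannot be told apart.

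**Figure D1:**
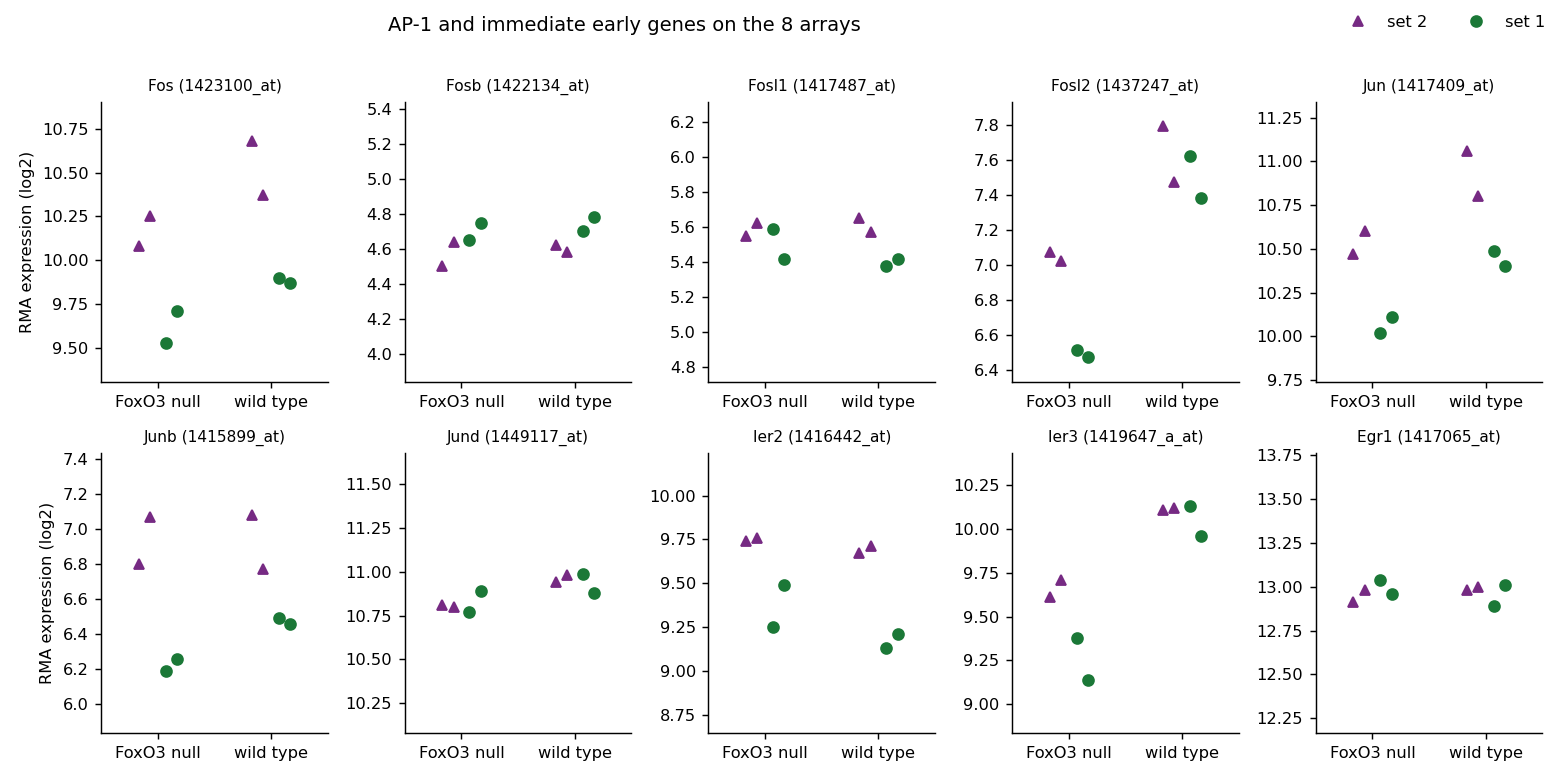
RMA expression (log2, y axis) of the brightest probe set of each of the 10 genes on every array, FoxO3 null at left and wild type at right, with triangles for set 2 and circles for set 1; each panel spans the same number of log2 units around its own values. Fosl2 and Ier3 show no overlap between genotypes, Jun and Fos are lower in FoxO3 null arrays within each set, and Egr1 lies between 12.89 and 13.04 on all arrays.

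Fosl2, which encodes the Fos family protein Fra-2, had the largest change of the group, in 1 of its 2 probe sets. Probe set 1437247_at read 7.07 and 7.02 in set 2 and 6.51 and 6.47 in set 1 of the FoxO3 null arrays, against 7.79 and 7.47 in set 2 and 7.62 and 7.38 in set 1 of the wild type arrays. Every FoxO3 null array was below every wild type array. It fell by 0.80 ± 0.10 on the log2 scale (SE; limma adjusted p = 0.00907), to 57.6% of the signal in wild type arrays. The dimmer probe set 1422931_at averaged 6.51 ± 0.11 in FoxO3 null and 6.47 ± 0.07 in wild type arrays (SD, n = 4 each). Its log2 fold change was 0.03, with a 95% confidence interval of -0.12 to 0.18, which lies outside the interval of -1.02 to -0.57 of the first. The 2 probe sets had a Pearson r of -0.15 over the 8 arrays. Which part of the transcript each one reads was not analysed here, so the change applies to the RNA that 1437247_at detects.

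Fos, the c-Fos subunit, was lower in FoxO3 null arrays within each set but did not pass. Its probe set 1423100_at read 10.08 and 10.25 in set 2 and 9.53 and 9.71 in set 1 of the FoxO3 null arrays, against 10.68 and 10.37 in set 2 and 9.90 and 9.87 in set 1 of the wild type arrays. The genotypes did not overlap inside a set, but over both sets the FoxO3 null arrays of set 2 were above the wild type arrays of set 1. The log2 fold change was -0.32 ± 0.08 (SE; adjusted p = 0.116), or 80.3% of the wild type signal, with a 95% confidence interval of -0.49 to -0.14. With a variance trend (adjusted p = 0.0325) and with set by genotype as a random block (adjusted p = 0.0285) it passed, while over all alternatives the adjusted p ran up to 1. With the mean of Y-linked genes as a covariate, which itself differed by genotype within each set, the log2 fold change of Fos was -0.08 (adjusted p = 0.984).

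The other Fos family members did not pass, and their intervals include 0. Fosb averaged 4.63 ± 0.10 in FoxO3 null and 4.67 ± 0.09 in wild type arrays, below the median level of 6.28 of all probe sets. Fosl1, which encodes Fra-1, averaged 5.54 ± 0.09 in FoxO3 null and 5.50 ± 0.13 in wild type arrays in probe set 1417487_at, also below that median. Its probe set 1417488_at averaged 5.38 ± 0.15 in FoxO3 null and 5.30 ± 0.11 in wild type arrays (SD, n = 4 each), where FoxO3 null array 2_2 stood above the other 3. The confidence intervals of the log2 fold change were -0.16 to 0.08 for Fosb and -0.09 to 0.17 and -0.08 to 0.26 for Fosl1.

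Jun, the c-Jun subunit that dimerises with itself or with Fos proteins, fell in both of its probe sets, which tracked each other with a Pearson r of 0.99 over the 8 arrays. Probe set 1417409_at read 10.47 and 10.60 in set 2 and 10.02 and 10.11 in set 1 of the FoxO3 null arrays, against 11.06 and 10.80 in set 2 and 10.49 and 10.40 in set 1 of the wild type arrays. Probe set 1448694_at read 10.02 and 10.10 in set 2 and 9.67 and 9.68 in set 1 of the FoxO3 null arrays, against 10.48 and 10.31 in set 2 and 10.10 and 9.98 in set 1 of the wild type arrays. Within each set the genotypes did not overlap in either probe set, whereas across sets they did. The log2 fold changes were -0.39 ± 0.07 (SE; adjusted p = 0.0325) and -0.35 ± 0.06 (adjusted p = 0.0286), to 76.3% and 78.5% of the signal in wild type arrays. Both calls were lost (adjusted p = 0.0633 to 0.124) without FoxO3 null array 1_1, 1_2, 2_1 or 2_2 and without wild type array 1_1 or 2_1. Without wild type array 1_2 only 1448694_at passed, and without 2_2 both did. Both were also lost with no set term, with sets as random blocks, on array means, without variance moderation and with a Y-linked covariate.

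The other Jun genes did not pass. Junb, whose protein is a weaker activator than c-Jun and can oppose it, read 6.80 and 7.07 in set 2 and 6.19 and 6.26 in set 1 of the FoxO3 null arrays, against 7.08 and 6.77 in set 2 and 6.49 and 6.46 in set 1 of the wild type arrays. The genotypes overlapped in set 2, and in set 1 the FoxO3 null arrays were lower. Its log2 fold change was -0.12 (95% confidence interval -0.32 to 0.08, adjusted p = 0.649). Jund, the subunit that is expressed more constantly, averaged 10.82 ± 0.05 in FoxO3 null and 10.95 ± 0.05 in wild type arrays in probe set 1449117_at (log2 fold change -0.13, 95% confidence interval -0.25 to -0.01, adjusted p = 0.354). Its dim probe set 1440265_at had 0.07 (adjusted p = 0.644).

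Ier3, a stress-inducible gene that affects cell survival and ERK signalling, also fell. Its probe set 1419647_a_at read 9.61 and 9.71 in set 2 and 9.38 and 9.14 in set 1 of the FoxO3 null arrays, against 10.11 and 10.12 in set 2 and 10.13 and 9.96 in set 1 of the wild type arrays. Every FoxO3 null array was below every wild type array, and the wild type arrays of both sets were alike while the FoxO3 null arrays of set 1 were the lowest. It fell by 0.62 ± 0.08 (SE; adjusted p = 0.0112), to 65.1% of the signal in wild type arrays. The fall of Ier3 and that of Fosl2 passed without any 1 of the 8 arrays, with log2 fold changes of -0.67 to -0.54 for Ier3 and of -0.90 to -0.70 for Fosl2. Both missed the threshold with no set term, without variance moderation, on array means and with a Y-linked covariate.

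Ier2, a nuclear immediate early protein, went the other way in its values. Probe set 1416442_at read 9.74 and 9.76 in set 2 and 9.25 and 9.49 in set 1 of the FoxO3 null arrays, against 9.67 and 9.71 in set 2 and 9.13 and 9.21 in set 1 of the wild type arrays. Each FoxO3 null array lay above the wild type arrays of its set, but the log2 fold change of 0.13 ± 0.07 (SE) did not pass (adjusted p = 0.465). Egr1, a zinc finger factor that serum response factor and ERK induce in many cell types, averaged 12.97 ± 0.05 in FoxO3 null and 12.97 ± 0.06 in wild type arrays. Its log2 fold change was 0.00, with a confidence interval of -0.12 to 0.13, so a change of the size seen in Jun lies outside it.

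**Figure D2:**
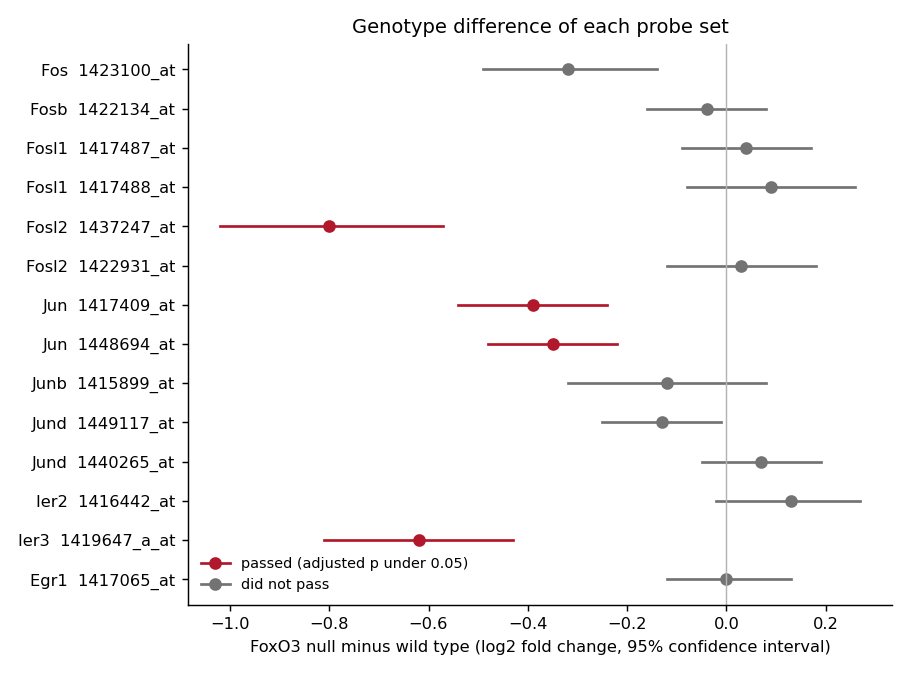
Log2 fold change of FoxO3 null over wild type for the 14 probe sets (x axis), with set as a term; points are estimates and bars 95% confidence intervals, in red where the probe set passed. The 4 that passed are all lower in FoxO3 null arrays, from -0.80 for Fosl2 to -0.35 for Jun, and the second Fosl2 probe set lies at 0.03.

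The genotype difference was next taken in each set, with the spread estimated from all 8 arrays. In set 2, 0 of the 14 probe sets passed in limma, against 0.91% of all probe sets, and 5 had an unadjusted p under 0.05, against 12.1% of all. In set 1, 2 passed, against 0.284% of all, and 5 had an unadjusted p under 0.05, against 8.74% of all. Those were Fosl2 (1437247_at, -1.01 ± 0.12, SE, adjusted p = 0.00929) and Ier3 (-0.79 ± 0.10, adjusted p = 0.0136). Their log2 fold changes in set 2 were -0.58 ± 0.12 (adjusted p = 0.0562) and -0.45 ± 0.10 (adjusted p = 0.0805). With a variance trend 4 members passed in set 2, against 2.14% of all probe sets, and 4 in set 1, against 0.986%. In a fit of the set 1 arrays alone 1 passed, against 0.0933%.

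The size of the difference was then compared between sets directly. For Fosl2 the set 2 effect minus the set 1 effect was 0.43 ± 0.16 (SE; adjusted p = 0.576) and for Ier3 it was 0.34 ± 0.14 (adjusted p = 0.628). No member passed this test in limma, against 0.0688% of all probe sets, and these were the 2 with an unadjusted p under 0.05 (0.0259 and 0.0372). For Jun the estimates were nearly equal, at -0.40 in set 2 and -0.38 in set 1 for 1417409_at. Fos had -0.36 in set 2 and -0.27 in set 1, and 10 of the 14 probe sets had the same sign in both sets, as did 55.6% of all probe sets.

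**Figure D3:**
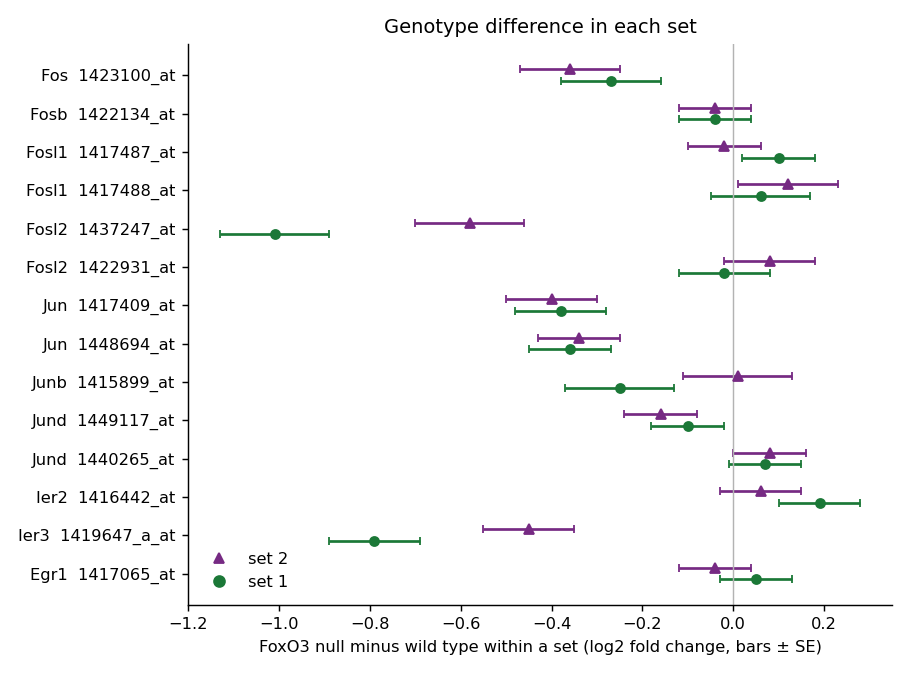
Log2 fold change of FoxO3 null over wild type within set 2 (triangles) and set 1 (circles) for each probe set, with bars of ± 1 SE from a fit of the 4 set and genotype means. Fosl2 (1437247_at) and Ier3 lie farther from 0 in set 1 than in set 2, and the 2 Jun probe sets have like values in both.

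Several members also differed between the sets. Set 2 was higher than set 1 in 7 of the 14 probe sets and lower in 0. Over all probe sets 38.4% differed between sets, and 19.5% were higher in set 2. Fos averaged 10.35 in set 2 and 9.75 in set 1 (difference 0.59 ± 0.08 on the log2 scale, SE, adjusted p = 0.000275). Junb differed by 0.58, Jun by 0.48 and 0.37, Ier2 by 0.45, Fosl2 (1437247_at) by 0.34 and Ier3 by 0.24 (adjusted p = 0.000438 to 0.0475). The differences of Fosl2 and Ier3 lay mostly in the FoxO3 null arrays. For Ier3 these averaged 9.66 in set 2 and 9.26 in set 1, and the wild type arrays 10.11 and 10.05. For Fosl2 the FoxO3 null arrays averaged 7.05 and 6.49, and the wild type arrays 7.63 and 7.5. Egr1 (-0.01), Jund (1449117_at, 0.00) and the second Fosl2 probe set (0.00) had the smallest differences.

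The genes differed in which grouping held more of their variation, as a share of the sum of squares over the 8 arrays. Genotype held 77.9% for Ier3, 75.5% for Fosl2 (1437247_at) and 68.9% for Jund (1449117_at). That Jund probe set varied little, with an SD of 0.05 in each genotype. Its log2 fold change of -0.13 did not pass (limma adjusted p = 0.354). Set held 84.5% for Ier2, 81.8% for Junb and 71.4% for Fos. Jun was split, with 37.3% for genotype and 56.4% for set in 1417409_at. For Egr1 72.3% lay within set and genotype.

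**Figure D4:**
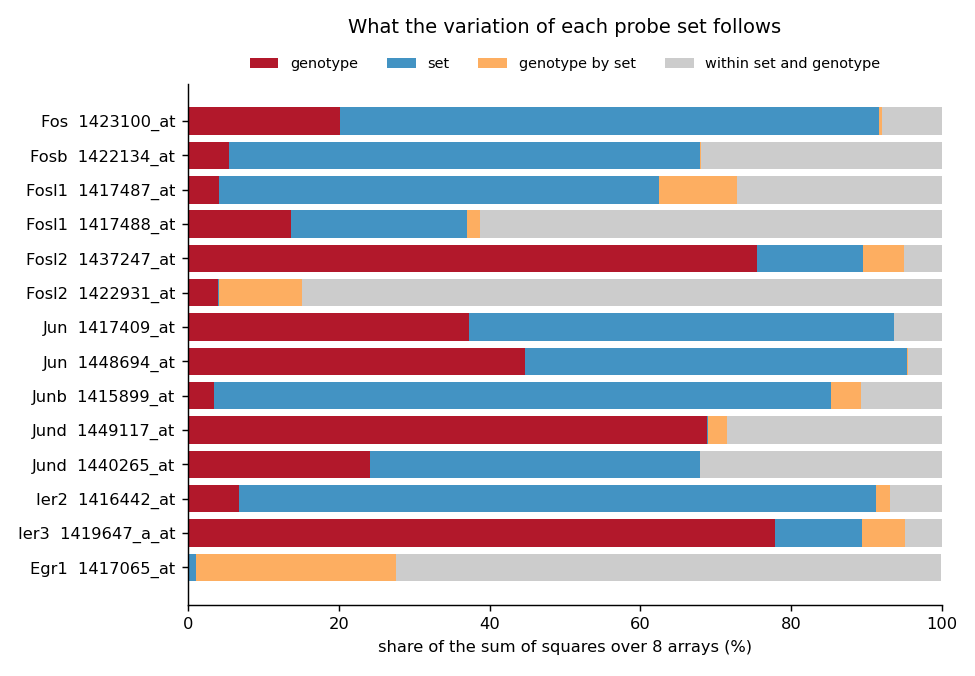
Share of each probe set's sum of squares over the 8 arrays (x axis, percent) that lies between genotypes (red), between sets (blue), in their interaction (orange) and within set and genotype (grey). Red fills most of the bars of Ier3 and of Fosl2 probe set 1437247_at, and blue those of Ier2, Junb and Fos.

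The profile of Fos was set against 11391 other genes whose brightest probe set lay above the median level, by Pearson r over the 8 arrays after removal of the set means. Among the 5 closest were Actr6, an actin-related protein of a chromatin remodelling complex (r = 0.994), Otud1, a deubiquitinase (0.983), Mfsd13a (0.982) and Prpf4b, a kinase of the splicing machinery (0.982). Their log2 fold changes of -0.41 to -0.16 did not pass. Among the members themselves, Fos and Jun had r = 0.97 and Fosl2 and Ier3 0.96, with the genotype difference left in these values. Egr1, with little variation, was closest to Mapk15 (0.975), Ehmt1 (0.973), Fam98c (0.953), Mettl7a1 (0.942) and Epn3 (0.941). These values are descriptions, picked as the highest of many.

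Genes that act with AP-1 were taken from lists, and a gene is named from its probe set with the smallest p, which need not be its brightest. Of 17 measured bZIP factors that can dimerise with or resemble Fos and Jun (42 probe sets), Ddit3, which encodes the stress factor CHOP, fell by 0.38 ± 0.07 (SE; adjusted p = 0.0489) in 1 of 2 probe sets, the other being at -0.05, and the other genes did not pass. The list median was 0.02, and 2.38% of its probe sets passed in limma, against 0.802% of all. At an unadjusted p under 0.05 it was 6 of 42, against 12.7% of all. Next by p was Atf2, a dimer partner of c-Jun, with 0.18 (adjusted p = 0.205) in a dimmer probe set, while its other 4 lay between -0.12 and -0.01. Among 40 further immediate early genes (78 probe sets, median 0.02), Ccn2, a matricellular growth factor, rose by 1.06 ± 0.10 (adjusted p = 0.0025) and 0 passed as lower. In this list 1.28% of the probe sets passed in limma, against 0.802% of all. Of the 78, 14 had an unadjusted p under 0.05, against 12.7% of all. Tiparp, an ADP-ribosyltransferase, had -0.39 (adjusted p = 0.0503), and its other 2 probe sets -0.26 and -0.10. Serum response factor, its TCF partners and related cofactors had 0 of 21 probe sets passing in limma (2 at an unadjusted p under 0.05), with Srf at 0.27 (adjusted p = 0.253; 0.14 in its brighter probe set) and Elk3 at 0.18 (adjusted p = 0.329; 0.09 in its brightest).

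In the kinase cascades upstream, 1.64% of the ERK probe sets and 2.27% of the JNK and p38 probe sets passed, 1 in each, against 0.802% of all. In the ERK pathway list (16 measured genes, 61 probe sets, median -0.01) Egfr, the EGF receptor, rose by 0.37 ± 0.07 (SE; adjusted p = 0.0358) in 1 of 7 probe sets. Its other 6 lay between -0.06 and 0.18, with 0.05 in the brightest (adjusted p = 0.791). Spry4, a feedback inhibitor, had 0.25 (adjusted p = 0.148) in its dimmest probe set and -0.08 in its brightest. Mapk10, which encodes the neuronal kinase JNK3, fell by 0.36 ± 0.07 (adjusted p = 0.0418) in 1 of 3 probe sets, the others being at -0.37 and -0.05, among 15 measured genes of the JNK and p38 list (44 probe sets, median 0.03). Map3k1, a kinase upstream of JNK, had -0.33 (adjusted p = 0.0539), and -0.10 in its other probe set. Of 37 probe sets of 21 genes known as AP-1 targets, 0 passed in limma and 6 had an unadjusted p under 0.05 (median -0.04), with the smallest p-values at Mt2, a metallothionein (-0.24, adjusted p = 0.0912), and Timp1, a metalloproteinase inhibitor (-0.33, adjusted p = 0.13). Heat shock genes, which tissue handling induces together with Fos and Jun, had 0 of 29 probe sets passing and 3 at an unadjusted p under 0.05 (median 0.02), with Hspa8 at 0.21 in its dimmest probe set and between -0.17 and 0.05 in the other 3, and Hsph1 at 0.19 and 0.15.

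**Figure D5:**
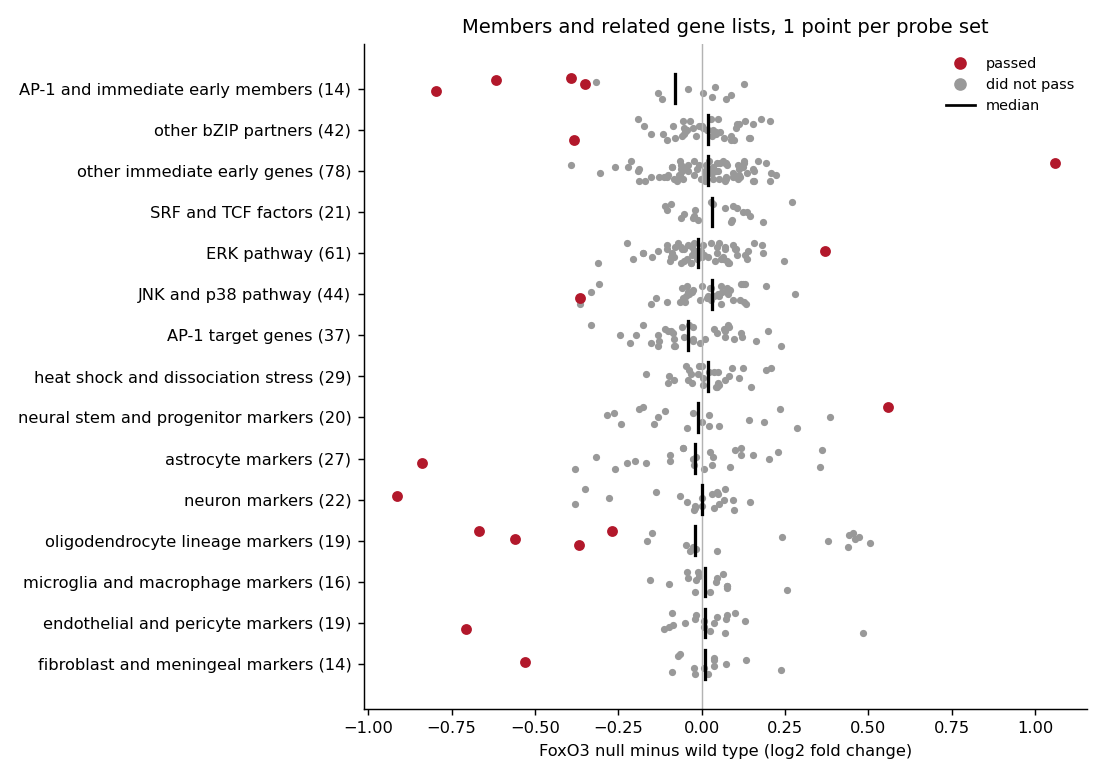
Log2 fold change of FoxO3 null over wild type (x axis) for each probe set of the 10 genes and of the related lists, with the number of probe sets in brackets, red points for those that passed and black bars for list medians. The 10 genes have 4 red points below 0 of 14, and the oligodendrocyte list also has 4, of 19. The median of the 10 genes lies at -0.08, and those of the other lists lie between -0.04 and 0.03.

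Signs of cell makeup and RNA quality are given beside these results, and their part in them was not tested. Foxo3 itself fell in its 2 brightest probe sets (log2 fold change -1.17 and -1.07, adjusted p = 0.000649 and 0.0021), while its dimmest had 0.33 (adjusted p = 0.11), and the extent of the deletion is not in the labels. The gene lies on chromosome 10, which holds 0 of the 10 members. Across 9 neural stem and progenitor markers the array medians ran from 10.93 to 11.26 in FoxO3 null and from 10.67 to 10.97 in wild type arrays. Their summed linear signals went the other way, from 54857 to 57550 in FoxO3 null and from 57001 to 59035 in wild type arrays. Of their 20 probe sets 1 passed and 10 were negative. For this list and those below, the shares over all probe sets were 0.802% passing, 0.586% passing as lower and 45.3% negative. Hopx was higher (0.56, adjusted p = 0.00572; 0.39 in its brighter probe set, adjusted p = 0.0536) and Nes had 0.29 (adjusted p = 0.0567), while Sox2 had -0.26 (adjusted p = 0.183). Of 10 microglia and macrophage markers, 8 lay below the median level of all probe sets, as did 6 of 9 endothelial and pericyte and 6 of 7 fibroblast markers, and of these lists only Flt1 (-0.71) and Fn1 (-0.53) passed, both lower, in 1 of 4 and 1 of 2 probe sets. In the oligodendrocyte list 4 of 19 probe sets fell, 1 of 3 for Pdgfra (-0.67), both for Cspg4 (-0.56 and -0.37) and 1 of 3 for Sox10 (-0.27). For Mbp, a myelin gene, 6 of 8 probe sets lay between 0.44 and 0.51 and did not pass (adjusted p = 0.171 to 0.305). Sox2 and Mbp were named after their values were seen. Of 27 astrocyte probe sets 1 passed and 14 were negative: Slc1a2, a glutamate transporter, fell by 0.84 in 1 of 5 probe sets, while Slc1a3, the next by p, had 0.36 (adjusted p = 0.174) in 1 of 6 and -0.06 in its brightest. Of 22 neuron probe sets 1 passed and 10 were negative: Gad1, which makes GABA, fell by 0.91 in 1 of 2.

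Summed linear signals of the brightest probe sets were 23533 to 38314 in FoxO3 null and 21231 to 36876 in wild type arrays for the oligodendrocyte markers, and 948 to 1072 in FoxO3 null and 1210 to 1458 in wild type arrays for the fibroblast markers. They were 2134 to 2404 in FoxO3 null and 1330 to 1981 in wild type arrays for the endothelial and pericyte markers, mostly from Acta2, a smooth muscle actin, without which they were 462 to 506 in FoxO3 null and 465 to 539 in wild type arrays. They were 458 to 522 in FoxO3 null and 479 to 501 in wild type arrays for the microglia markers. Among the fibroblast markers only Fn1 lay above the median level of all probe sets, so it weighs heavily in their sum. Fn1 averaged 9.48 in FoxO3 null and 10.01 in wild type arrays on the log2 scale, and a fibroblast sum without it was not taken. The excess of the 3' over the 5' actin control signal averaged 0.41 ± 0.08 in FoxO3 null and 0.45 ± 0.09 in wild type arrays on the log2 scale (SD, n = 4 each). In set 2 it was 0.33 to 0.36 in FoxO3 null and 0.36 to 0.39 in wild type arrays, and in set 1 it was 0.47 to 0.49 in FoxO3 null and 0.52 to 0.54 in wild type arrays. An exact permutation within sets gave a two-sided p of 0.111, 0.0556 being the smallest possible, and the same p for the Gapdh controls, which averaged -0.10 ± 0.01 in FoxO3 null and -0.08 ± 0.02 in wild type arrays. The mean level of 3 Y-linked genes (Kdm5d, Uty and Eif2s3y) ran from 6.88 to 8.09 in FoxO3 null and from 7.66 to 8.35 in wild type arrays and was lower in FoxO3 null arrays within each set. It had a correlation of -0.861 with genotype after removal of the set means, so a fit with it as a covariate separates the 2 poorly. With it as a covariate the log2 fold changes were -0.98 for Fosl2, -0.84 for Ier3, -0.24 and -0.28 for Jun and -0.08 for Fos. None of these passed (adjusted p = 0.201 to 0.984), nor did any other probe set, and a part of sex was not tested.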

How the data were processed

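RNA of secondary neurospheres was measured on 8 Affymetrix Mouse430_2 arrays. The deposited table holds log2 expression values, 1 column per array, made by the authors with RMA, per the submitters' processing notes, in a version not given in the sources used here. RMA gives all arrays like distributions, so a shift shared by most genes would not be seen. Array medians lay between 6.27 and 6.31. Of 45101 probe sets 64 controls were left out. The platform annotation gives 34945 of the others 1 gene symbol, 932 several and 9160 none.

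Genotypes were compared with limma 3.58.1 (R 4.3.3, lmFit and eBayes) with set as an additive term, and within sets and between them from a fit of the 4 set and genotype means, two-sided, with Benjamini-Hochberg adjustment over 45037 probe sets. The scripts were tested on simulated data. The 10 members and the lists were chosen with earlier results of these data known. The brightest probe set, with the highest mean, stood for each member in comparisons of members, and for each gene in the summed signals and the likeness to Fos and Egr1. From each list up to 4 passing genes, or the 2 with the smallest p where fewer than 2 passed, were named by their probe set with the smallest p, with Foxo3 and the 5 genes most like Fos and like Egr1, of which 1 is not reported here. List entries without a probe set of their own symbol were not analysed here, nor were the scanner files. Alternatives covered the set term, normalization, dim probe sets, the variance model, repeat arrays, a Y-linked covariate and leaving out each array.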

Additional observations from a re-analysis of the deposited data

Results flagged for a closer look

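Within the 4 arrays of each genotype, the 14 probe sets were searched for an array whose gap to its nearest neighbour took more of the group's range than Dixon's 95% critical value. For 4 values of 1 normal sample this flags about 1 in 20 groups by chance, and 28 groups were searched. Each group spans both sets, and some genes have 2 probe sets, so that rate need not hold here. In Fosl1 probe set 1417488_at the FoxO3 null array 2_2 read 5.60 against 5.31 on the other 3 FoxO3 null arrays (gap share 0.976). In Ier3 the wild type array 1_2 read 9.96 against 10.11 to 10.13 on the other 3 (gap share 0.858). Ier3 passed without that array.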

How the results depend on the processing

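The 361 probe sets that passed became 3 with no set term, 825 with a variance trend, 138 with a replicate block and 0 without variance moderation. They became 714 at an adjusted p under 0.1, 1354 with set by genotype as a random block and 63 with sets as random blocks. Array means of each set and genotype gave 39, the Y-linked covariate 0, and fits without 1 array 83 to 271. At unadjusted p under 0.05, 1894 of 45037 passed with no set term, 5134 without moderation, 4320 with array means and 2890 with the covariate. Of the 14 member probe sets, 4 passed, against 0 with no set term, 0 without moderation, 0 with array means and 0 with the Y-linked covariate (4, 6, 5 and 3 at an unadjusted p under 0.05), 2 with a replicate block, 2 with sets as random blocks and 2 to 4 without 1 array. Under the replicate block both Jun probe sets missed the threshold (adjusted p = 0.095 and 0.0795). Same-numbered arrays showed little shared deviation (r = 0.074 in set 1 and -0.058 in set 2). Each set gives only 1 difference per genotype, so this cannot tell whether the arrays were paired, and the labels do not say. In set 2, 0 passed, against 1 among probe sets above the median level, where the share over all was not counted, and 4 with a variance trend. In set 1, 2 passed, against 4 with a variance trend and 1 with the arrays of that set alone. Fosl2 (1437247_at) and Ier3 passed in 18 of 22 alternatives each and were lower in all, with log2 fold changes of -0.98 to -0.70 and -0.84 to -0.54. Jun was lower in all its alternatives, from -0.44 to -0.24, and passed in 9 of 22 (1417409_at) and 9 of 21 (1448694_at). Uncalled values changed sign. Fosb had 0.02 with the Y-linked covariate, Fosl1 (1417487_at) -0.01 to 0.07 without 1 array, and Egr1 0.00 with centred arrays and -0.03 to 0.03 without 1 array. The causes were not tested. The number of arrays, 4 per genotype, limits the precision.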
